A study of Homo sapiens with 54 samples.

Results

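The genes described are 35 that act in glycolysis, in lactate handling and in the response to low oxygen, chosen by symbol as the rows of both count tables that carry those names. All 35 were found among the 33119 genes of the tables. They comprise 2 glucose transporters, 9 genes of upper glycolysis, 9 of lower glycolysis, 4 that make or carry lactate, 3 pyruvate dehydrogenase kinases and 8 hypoxia-type genes. Sequencing of the 3′ ends of RNA gave 54 libraries from 6 established human cancer cell lines, in 18 groups of 3 libraries and in 2 separately tabulated sets. Set 1 holds SW48 and SW620, both colorectal, as controls and with trametinib, which blocks the kinases MEK1 and MEK2. Set 2 holds SW48 and SW620 as controls, with trametinib and with palbociclib, which blocks CDK4 and CDK6 and so entry into the cell cycle, and holds the stomach lines NCI-N87 and MKN-45 and the breast lines BT-20 and BT-474 as controls and with afatinib, an inhibitor of the ERBB receptor family. All lines grew in the same serum-supplemented medium, the controls are labelled only as controls, and the sources used here give no doses, exposure times or oxygen level. The labels do not say whether libraries of 1 group are separate cultures, so p-values measure only the spread between libraries, which may be technical. These are bulk samples, in which fewer cells of a kind and less RNA per cell cannot be told apart.

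Glycolysis turns glucose into pyruvate. Transporters of the SLC2A family bring glucose in, and hexokinases and phosphofructokinases commit it to the pathway. Pyruvate is then either reduced to lactate by lactate dehydrogenase and exported by the carriers SLC16A1 and SLC16A3, or oxidised inside mitochondria. Pyruvate dehydrogenase, the enzyme of that second route, is switched off by the PDK kinases. Many of these genes are classical targets of the hypoxia-inducible factor HIF-1, which binds DNA at a core of ACGTG and also drives VEGFA, ADM, CA9, BNIP3, NDRG1, P4HA1, EGLN3 and ANKRD37. The growth-signalling pathways that these drugs block, and the factor MYC, which binds CACGTG, are known to raise many of the same genes.

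The promoters of 6 members whose counts moved in the same direction in BT-474 are shown, with the 5-letter core searched on both strands, because members that moved together were read side by side. They were chosen after their values were seen. The windows come from RefSeq on build GRCh38.p14, run 5′ to 3′ on the strand of the gene and hold the bases before an annotated start. The first window listed for each gene was used, so that start need not be the outermost. The GAPDH window lies inside the gene, which begins at chr12:6534517, so its match is not upstream of the whole gene. The starts used for GPI, PFKP and TPI1, named below, also lie inside their genes. Capitals mark every ACGTG or its reverse complement CACGT.
HK2, chr2:74833877-74834126, plus strand: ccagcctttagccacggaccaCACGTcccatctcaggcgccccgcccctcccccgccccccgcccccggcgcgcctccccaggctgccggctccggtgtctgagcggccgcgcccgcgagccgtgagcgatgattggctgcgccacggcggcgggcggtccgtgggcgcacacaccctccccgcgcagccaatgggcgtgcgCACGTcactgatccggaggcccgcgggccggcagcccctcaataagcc
ALDOA, chr16:30064029-30064278, plus strand: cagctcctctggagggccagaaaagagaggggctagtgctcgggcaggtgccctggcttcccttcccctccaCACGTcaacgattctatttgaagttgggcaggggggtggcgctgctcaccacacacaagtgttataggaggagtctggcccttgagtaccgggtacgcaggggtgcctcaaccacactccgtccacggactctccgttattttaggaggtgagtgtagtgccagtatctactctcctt
GAPDH, chr12:6535014-6535263, plus strand: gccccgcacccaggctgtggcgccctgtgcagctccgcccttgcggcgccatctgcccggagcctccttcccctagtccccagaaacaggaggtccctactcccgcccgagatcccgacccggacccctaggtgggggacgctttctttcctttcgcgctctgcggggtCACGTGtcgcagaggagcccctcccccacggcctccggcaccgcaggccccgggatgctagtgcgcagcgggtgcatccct
PGK1, chrX:78103998-78104247, plus strand: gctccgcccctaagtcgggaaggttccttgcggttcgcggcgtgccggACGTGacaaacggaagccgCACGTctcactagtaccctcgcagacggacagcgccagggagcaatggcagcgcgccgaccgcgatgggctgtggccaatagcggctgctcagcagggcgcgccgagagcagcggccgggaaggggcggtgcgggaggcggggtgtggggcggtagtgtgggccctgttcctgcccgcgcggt
LDHA, chr11:18394313-18394562, plus strand: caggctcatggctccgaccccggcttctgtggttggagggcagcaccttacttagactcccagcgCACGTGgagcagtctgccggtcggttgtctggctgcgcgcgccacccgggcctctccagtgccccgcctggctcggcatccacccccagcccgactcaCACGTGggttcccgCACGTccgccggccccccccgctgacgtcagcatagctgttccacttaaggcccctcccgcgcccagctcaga
ENO1, chr1:8878687-8878936, minus strand: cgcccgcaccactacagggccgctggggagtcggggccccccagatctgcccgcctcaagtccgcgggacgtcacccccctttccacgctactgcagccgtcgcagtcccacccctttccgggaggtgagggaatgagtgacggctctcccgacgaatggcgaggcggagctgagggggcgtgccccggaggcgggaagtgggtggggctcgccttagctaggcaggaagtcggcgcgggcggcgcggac
ACGTG or CACGT, searched in the whole windows of 250 bases before to 50 after the start, occurred in 13 of the 30 members that have a window (43.3%) and in 21.4% of all 35116 windows. The 6-letter CACGTG, which reads the same on both strands and holds one match of each 5-letter form, occurred in 5 of the 30 (16.7%) against 7.26% of all windows. LDHA held 5 matches in its window and the most of these 6 genes, at positions -185, -184, -87, -86 and -73 counted from the start, and ENO1 held none. Of the other members that fell in BT-474 and have a window, GPI and BNIP3 held a match, and HK1, PFKP, PFKFB3, TPI1, PDK1, ADM and EGLN3 held none. PGK1 held a further match after its start, outside the bases printed. A match is only a run of letters and not a binding site. For SLC2A3, NDRG1, SLC16A1, VEGFA and PFKFB2 no window was used.

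Depth ranged from 3401565 to 12806042 counts per library, and levels are given as CPM, the count relative to a library total that was scaled by TMM within a set. The 3′ counts are not corrected for gene length, so a level is compared only between groups for the same gene. Processed copies of genes such as GAPDH, PGK1, PGAM1, ENO1, LDHA and LDHB lie elsewhere in the genome, and SLC2A3 has a near-identical neighbour, so their counts may be split or lost in ways the tables do not show. The lists of tissue markers matched the labels only in part: BT-474 had the highest summed breast markers (1552 to 1619 CPM in the controls), the colorectal marker CDX1 had no count in the controls of either colorectal line, and the stomach markers of NCI-N87 summed to only 39.3 to 44.8 CPM against 338 to 365 CPM in the breast line BT-474. SW620 control 3 of set 1 stood apart from the other 2 controls, with LDHA at 42.5 CPM against 350 and 383 CPM and PKM at 3289 CPM against 328 and 559 CPM. NCI-N87 control 1 also stood apart, with NDRG1 at 143 CPM against 430 and 559 CPM. The controls labelled SW48 differed between the sets: LDHB was 23.6, 74.7 and 125 CPM in set 1 and 994, 964 and 956 CPM in set 2. In set 1, 22.4 to 38.0% of the reads of SW48 controls and 42.4 to 47.5% of those with trametinib were not aligned, against 0.338 to 5.19% in SW620.

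Across the 6 groups of set 2 controls the level of each of the 34 members tested differed between lines (edgeR quasi-likelihood F test), but 97.1% of all genes tested did so too, so this count says little about the members. SLC2A1, the main glucose transporter of cancer lines (chr1:42925353-42958868), was highest in SW48 at 865 ± 37.0 CPM (SD, n = 3) and lowest in BT-474 at 151 ± 5.04 CPM, a ratio of 5.72. Neighbouring lines in that order did not overlap, except BT-20 and BT-474. SLC2A3, the neuronal-type transporter, was again highest in SW48 (102 ± 0.905 CPM) and had no count in the 3 controls of BT-474.

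At the lactate step, LDHB, the subunit that favours lactate oxidation (chr12:21635342-21657842), stood at 1638 ± 66.4 CPM in MKN-45, 1376 ± 46.2 CPM in SW620, 971 ± 19.9 CPM in SW48, 231 ± 14.4 CPM in BT-474 and 38.2 ± 6.34 CPM in NCI-N87, with no overlap between neighbours. BT-20 had no LDHB count in any of its 6 libraries. LDHA, the subunit that favours lactate formation, was detected in every line and ranged from 457 ± 152 CPM in SW620 to 90.5 ± 17.4 CPM in SW48. The exporter SLC16A3 (chr17:82217934-82240086) ran from 185 ± 23.1 CPM in SW620 to 6.09 ± 1.16 CPM in BT-20, a ratio of 30.3. SLC16A1, the carrier that works in both directions, ran from 354 ± 26.5 CPM in SW620 to 16.7 ± 1.91 CPM in BT-474, a ratio of 21.2.

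Among the hypoxia-type genes NDRG1, a stress-induced differentiation gene, had the widest range, from 377 ± 213 CPM in NCI-N87 to 1.87 ± 0.388 CPM in SW620, although the NCI-N87 controls were themselves 143, 430 and 559 CPM. CA9, the surface carbonic anhydrase used as a hypoxia marker, was high in SW620 at 91.7 ± 4.44 CPM, while SW48 had no count in its controls. BNIP3, a mitophagy receptor, also had no count in the SW48 controls and stood at 23.5 ± 1.87 CPM in BT-474. VEGFA, the angiogenic growth factor (chr6:43770211-43786487), was highest in SW48 at 245 ± 20.1 CPM and lowest in MKN-45 at 42.6 ± 9.15 CPM. ANKRD37 was too low to be tested in any comparison, with a highest mean of 0.327 ± 0.210 CPM in SW620. The core enzyme GAPDH went from 2873 ± 78.1 CPM in SW620 to 1651 ± 32.5 CPM in SW48, a ratio of 1.74, and all 5 neighbouring pairs of lines overlapped.

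**Figure D1:**
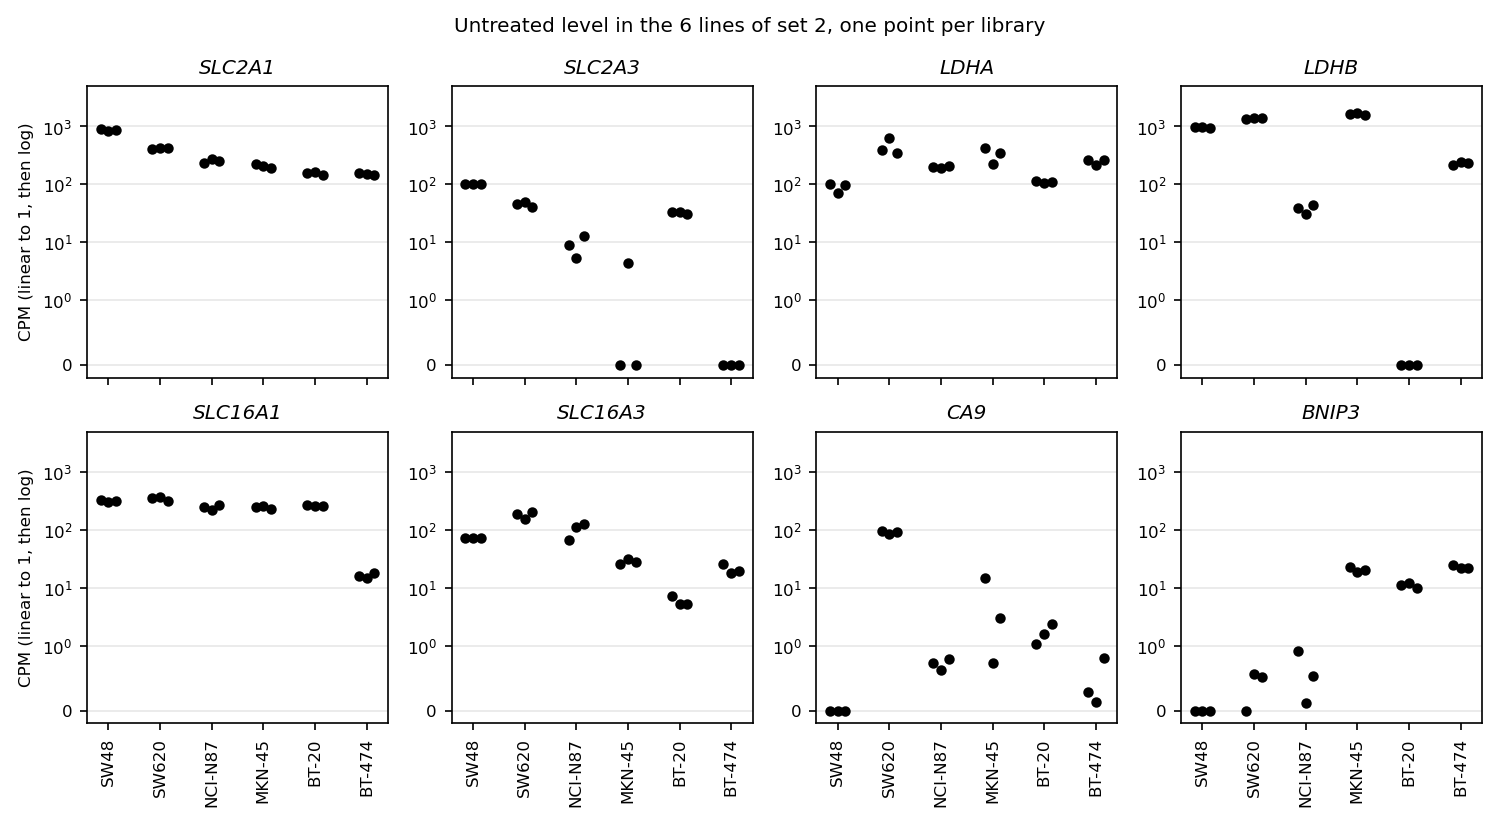
Levels of 8 genes in the controls of the 6 lines of set 2, with 1 point per library and a CPM axis that is linear up to 1 and logarithmic above. LDHB runs from a mean of 1638 CPM in MKN-45 to no count in BT-20, and CA9 has its highest mean in SW620, at 91.7 CPM.

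Against these baselines 10 comparisons of a drug with the same line's controls were made. Between 15 and 25 members passed the threshold (Benjamini-Hochberg adjusted p under 0.05 over all genes tested) in the 3 SW48 comparisons, in SW620 with palbociclib and in BT-474 with afatinib, and no member did in the other 5. Where members passed, between 16% and 30.1% of all genes tested rose and between 17.4% and 30.1% fell. Elsewhere 0% of all genes passed, except in BT-20, where 0.273% rose and 0.312% fell. All fold changes are log2 values, drug minus control, with standard errors (SE) from the edgeR fit.

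**Figure D2:**
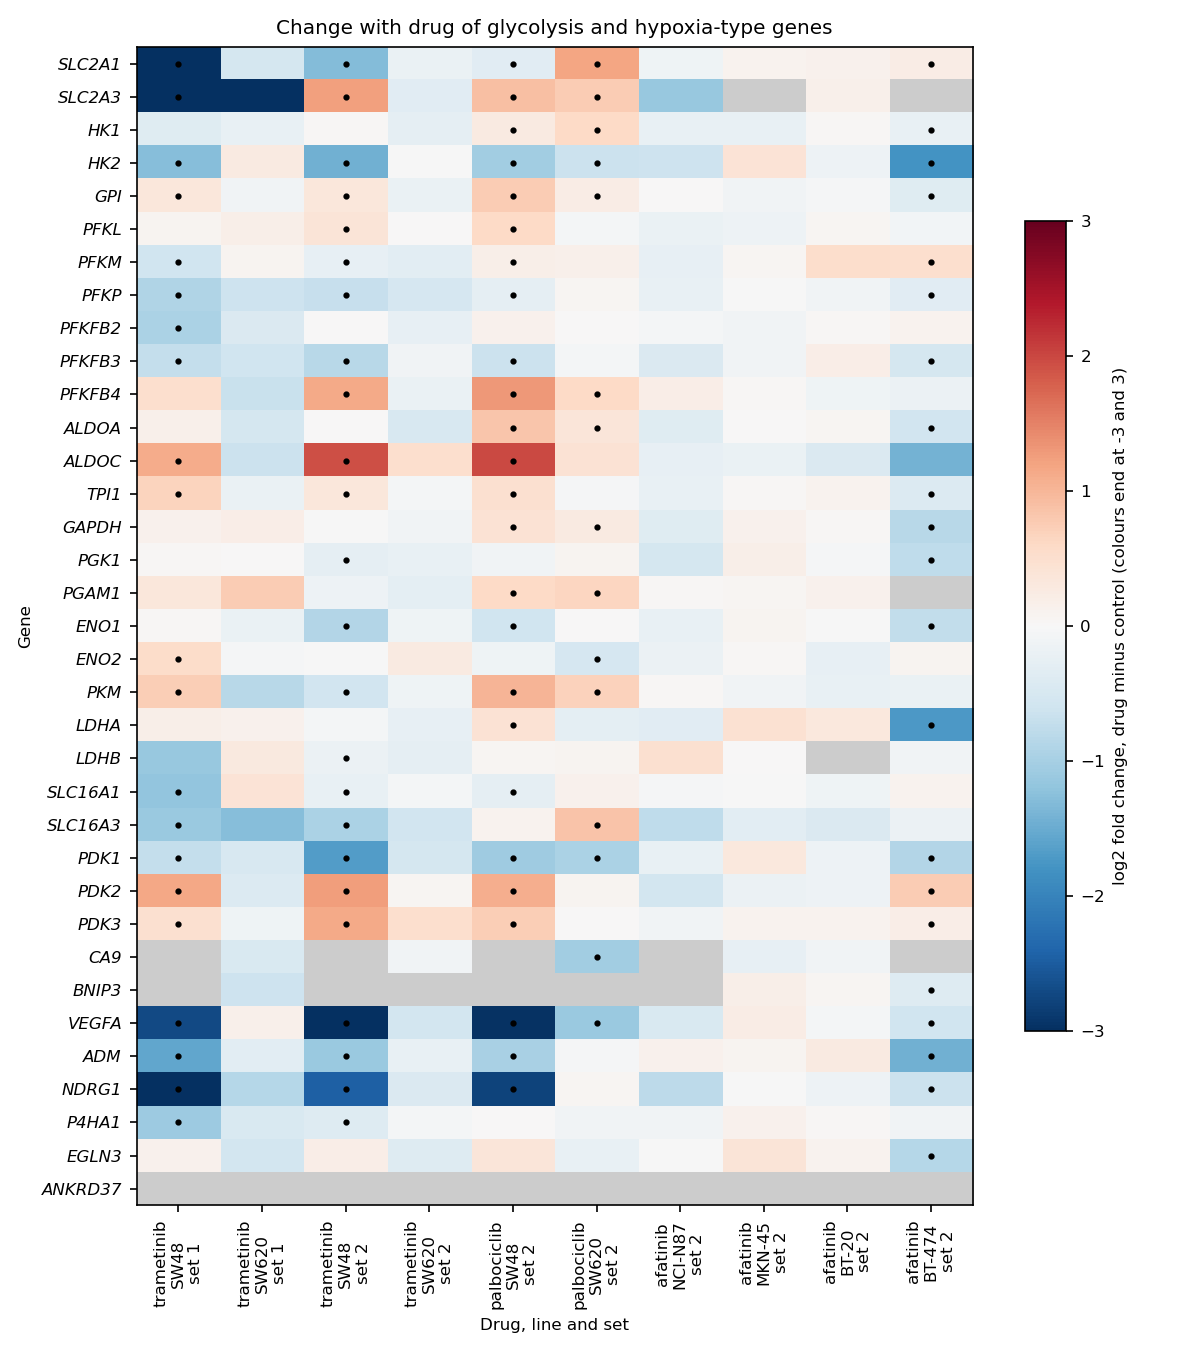
Log2 fold change of each member (rows) in each of the 10 comparisons (columns), with a colour scale that ends at 3 in either direction, dots for changes that passed the threshold and grey for genes not tested. All dots lie in the 3 SW48 columns, SW620 with palbociclib and BT-474, and VEGFA is lower in all of these.

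With afatinib, many but not all genes of glycolysis fell in BT-474, a breast line with amplified ERBB2, HK2 and LDHA among them. Of 31 members tested, 4 rose and 17 fell, where 20.9% of all genes tested rose and 21.8% fell, and the median change of the members was -0.36 against 0.01 for all genes. In the lower pathway 5 of 8 members tested fell and 0 rose: ALDOA, TPI1, GAPDH, PGK1 and ENO1. The other 3 tested did not pass, PKM among them. At the entry, HK2, the inducible hexokinase (chr2:74834127-74893359), stood at 52.8, 49.4 and 61.0 CPM in the controls and 13.1, 16.8 and 16.9 CPM with afatinib. All treated libraries lay below all controls, a log2 fold change of -1.79 (SE 0.12, adjusted p = 2.5e-07), or 3.45-fold lower.

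LDHA (chr11:18394563-18408425) also fell. Its levels were 261, 221 and 259 CPM in the BT-474 controls and 64.1, 93.8 and 63.1 CPM with afatinib, again without overlap, for a log2 fold change of -1.73 (SE 0.13, adjusted p = 6.5e-07). GAPDH, the oxidising step of glycolysis, went from 1760, 1759 and 2214 CPM to 988, 1114 and 1083 CPM (-0.84, SE 0.09, adjusted p = 1.3e-05). PGK1, the first ATP-forming step, went from 271, 236 and 265 CPM to 146, 148 and 155 CPM (-0.77, SE 0.07, adjusted p = 2.4e-06). For both genes the 2 groups were separate. The aldolase ALDOA changed by -0.57, the isomerase TPI1 by -0.41, the enolase ENO1 by -0.73 and the isomerase GPI by -0.36, and each of these groups was separate too. PFKP, a phosphofructokinase, fell by 0.34 on the log2 scale, while PFKM, its muscle-type relative, rose by 0.51, from 29.1, 29.3 and 25.8 CPM to 40.3, 43.1 and 35.6 CPM (adjusted p = 0.0016).

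The pyruvate dehydrogenase kinases split. PDK1, the HIF-responsive member, went from 23.0, 18.1 and 19.5 CPM to 10.0, 8.75 and 13.8 CPM (-0.87, adjusted p = 0.0013), and PDK2 went from 19.6, 17.4 and 21.0 CPM to 34.4, 34.6 and 28.0 CPM (0.75, adjusted p = 3e-04). Neither pair of groups overlapped. Among the hypoxia-type genes 5 of 6 tested fell. ADM, the peptide adrenomedullin, fell most, from 18.6, 17.4 and 28.4 CPM to 7.82, 6.69 and 8.95 CPM (-1.44, SE 0.21, adjusted p = 0.00014). VEGFA went from 114, 74.6 and 92.8 CPM to 59.4, 53.5 and 72.1 CPM (-0.59, SE 0.14, adjusted p = 0.0051), with all treated libraries below the controls.

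At the membrane, SLC16A3 differed by -0.17 (adjusted p = 0.44) and SLC2A1 rose slightly, from 157, 151 and 146 CPM to 188, 180 and 161 CPM (0.23, SE 0.07, adjusted p = 0.02), a call that was lost without control 2 (adjusted p = 0.077), control 3 (0.082), afatinib 1 (0.096) or afatinib 2 (0.08). NDRG1 differed by -0.65 (adjusted p = 0.01) with 1 control inside the treated range, at 386, 213 and 371 CPM against 176, 204 and 232 CPM. Without control 1, 15 members passed in place of 21: HK1, PFKFB3, PDK3, BNIP3, NDRG1 and EGLN3 lost the call, with adjusted p of 0.093, 0.053, 0.12, 0.062, 0.061 and 0.13. HK1, PDK3 and EGLN3 were also lost without afatinib 1 (0.054, 0.06 and 0.095) or afatinib 2 (0.076, 0.09 and 0.11). NDRG1 was also lost without control 3 (0.053), as were PFKFB3 (0.065) and EGLN3 (0.088). When every group of set 2 shared 1 fit, VEGFA (adjusted p = 0.077) and NDRG1 (0.072) did not pass. The proliferation marker MKI67 went from 137, 138 and 138 CPM to 36.1, 35.7 and 31.2 CPM, and DUSP6, a direct readout of ERK signalling, from 98.0, 91.1 and 88.8 CPM to 29.6, 27.6 and 28.8 CPM. The 8 stomach markers summed to 338 to 365 CPM in the controls and 540.3 to 599.9 CPM with afatinib. The 8 breast markers rose too, from 1552 to 1619 CPM up to 1870 to 2031 CPM. Depth was 7487141 to 8137276 counts per library in the controls and 5765064 to 6228509 with afatinib. The part of these in the changes of the pathway was not tested.

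In BT-20, an EGFR-high breast line without ERBB2 amplification, no member passed with afatinib among 33 tested, where 0.273% of all genes rose and 0.312% fell. Of a list of 13 genes read as output of the drug targets, with DUSP6 and MKI67 among them, 2 fell and 0 rose (lowest edgeR adjusted p = 1.3e-07). There were 8 members with an unadjusted p under 0.05, beside 1602 of all 12810 genes tested, and DESeq2 called 0 members. HK2 stood at 12.8, 15.7 and 16.1 CPM in the controls and 9.87, 15.8 and 13.8 CPM with afatinib (-0.15, adjusted p = 0.78). LDHA stood at 114, 108 and 110 CPM and 99.4, 156 and 153 CPM (0.32, adjusted p = 0.33), and without afatinib 1 its difference of 0.50 passed (adjusted p = 0.017). NDRG1 was 103, 107 and 103 CPM in controls and 93.1, 92.9 and 92.9 CPM with the drug, separate by a small margin, but this did not pass (-0.14, adjusted p = 0.37). The differences of SLC2A1 (0.13, adjusted p = 0.54), SLC16A3 (-0.43, 0.49) and VEGFA (-0.06, 0.78) did not pass either.

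The test of the difference between the breast lines, the change in BT-474 minus that in BT-20, called 3 members higher and 12 lower of 34 tested, where 10.2% of all genes were higher and 13.6% lower. LDHA differed by -2.07 (SE 0.21, adjusted p = 2.6e-06), ADM by -1.73 (adjusted p = 8e-05) and HK2 by -1.65 (SE 0.22, adjusted p = 5e-05). GAPDH (-0.89), PFKFB3 (-0.75), PGK1 (-0.75), ENO1 (-0.74), ALDOA (-0.66) and TPI1 (-0.54) also differed, and PDK2 differed in the other direction (0.88). VEGFA passed at -0.55 (adjusted p = 0.027), but its call was lost without any of 8 of the 12 libraries, where adjusted p lay between 0.051 and 0.096. GPI (-0.34) and PDK1 (-0.73) were lost without BT-474 control 1 (adjusted p = 0.092 and 0.069), without BT-474 afatinib 1 (0.086 and 0.065) and without other libraries, and without BT-474 control 1 the number called was 10. The calls for SLC2A3 and PGAM1 rest on few counts in BT-474: SLC2A3 had 0, 0 and 0 counts in the controls and 1, 32 and 0 with afatinib, and PGAM1 had 1, 0 and 1 against 12, 10 and 0, so no fold is given for them.

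**Figure D3:**
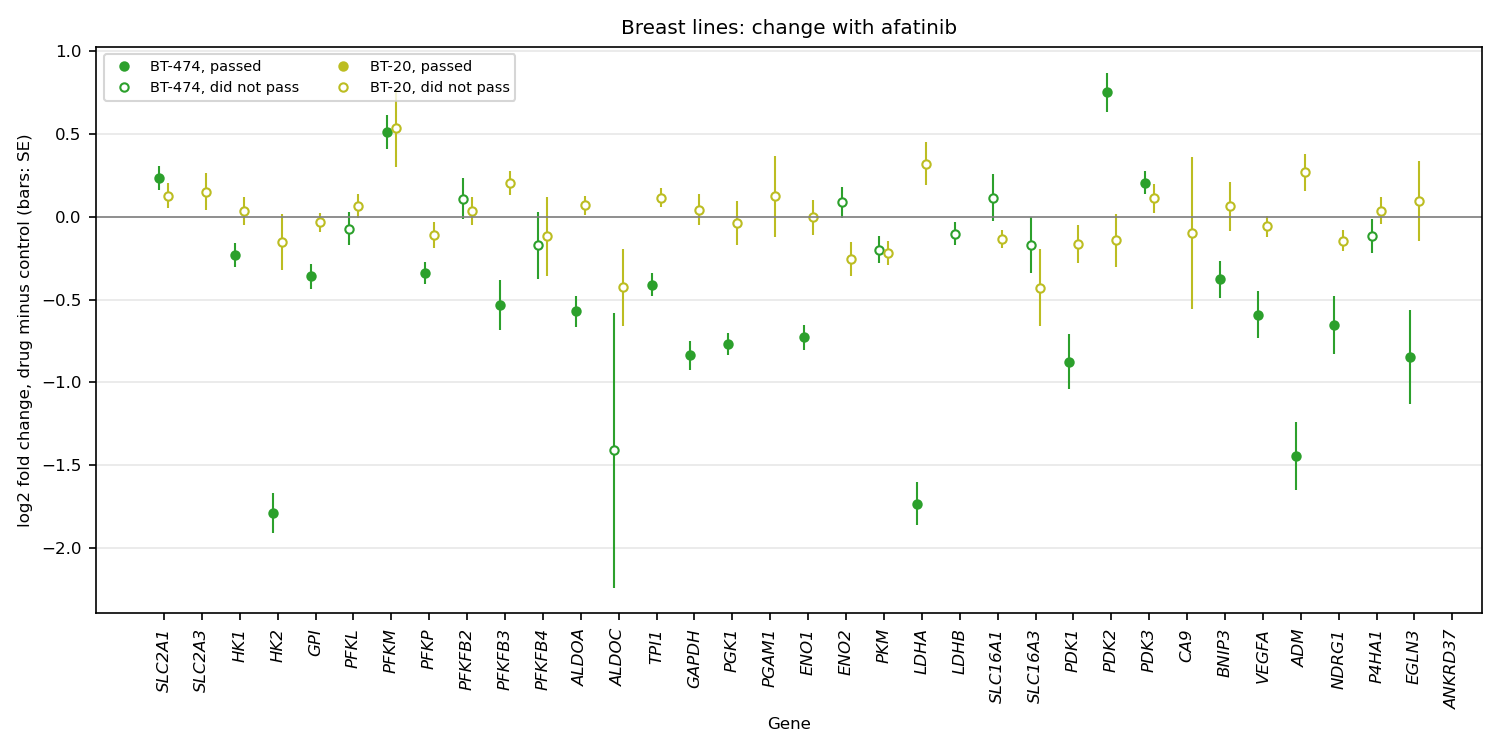
Log2 fold change with afatinib (vertical axis, points with bars of 1 SE) of the members (horizontal axis) in BT-474 and BT-20, filled where the change passed the threshold. LDHA and HK2 lie at -1.73 and -1.79 in BT-474 and at 0.32 and -0.15 in BT-20, where no point is filled.

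In SW48, trametinib lowered VEGFA, NDRG1, SLC2A1, HK2 and SLC16A3 in both sets. Of the 9 genes of lower glycolysis 4 rose and 0 fell in set 1, and 2 rose and 3 fell in set 2. The 2 sets share no library, so each is a separate measurement. Of 32 members tested, 7 rose and 14 fell in set 1 (16% and 19.4% of all genes tested) and 8 rose and 16 fell in set 2 (30.1% and 30.1%). Among the members 19 passed in both sets, 12 lower in both, 5 higher in both and 2 in opposite directions, so 89.5% moved in the same direction. Of 11954 genes tested in both sets 3321 passed in both, and 93.8% of these moved in the same direction, so the members did not stand above all genes in this. The LDHB level of the controls differed between the sets, as given above, and the part of that difference in the comparison of the sets was not tested.

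SLC2A1 was 912, 1093 and 1099 CPM in the set 1 controls and 135, 121 and 121 CPM with trametinib, a log2 fold change of -3.03 (SE 0.10, adjusted p = 2e-06), or 8.17-fold lower. In set 2 it was 901, 827 and 867 CPM in the controls and 365, 353 and 348 CPM with the drug (-1.30, SE 0.05, adjusted p = 8.3e-10). Groups were separate in both sets. SLC2A3 went the opposite way in the 2 sets: from 10.0, 6.25 and 14.7 CPM to 1.46, 0.460 and 1.30 CPM in set 1 (-3.20, adjusted p = 0.0022), on 2 to 8 counts in the treated libraries, and from 102, 103 and 101 CPM to 234, 248 and 249.1 CPM in set 2 (1.24, SE 0.06, adjusted p = 3.1e-09).

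HK2 fell in each set, from 45.0, 43.0 and 42.0 CPM to 15.7, 17.7 and 20.0 CPM in set 1 (-1.27, SE 0.15, adjusted p = 0.00045) and from 50.02, 58.5 and 67.2 CPM to 25.2, 23.7 and 16.5 CPM in set 2 (-1.45, SE 0.14, adjusted p = 2e-06). The groups were separate both times. PFKFB3, which makes the activator of phosphofructokinase, fell by 0.71 and 0.83 on the log2 scale, and PFKP fell by 0.91 and 0.70. GPI rose by 0.33 and 0.34, TPI1 by 0.66 and 0.33, and ALDOC, the brain-type aldolase, by 1.12 and 1.94. PKM, pyruvate kinase (chr15:72199029-72231591), was the second member that turned: in set 1 it went from 1234, 1204 and 1631 CPM to 1816, 2503 and 2364 CPM (0.73, adjusted p = 0.0071), and in set 2 from 1332, 1427 and 1314 CPM to 857, 921 and 1013 CPM (-0.56, adjusted p = 1.1e-05). PGK1 did not pass in set 1 (0.04, adjusted p = 0.78) and fell by 0.27 in set 2 (adjusted p = 0.0066).

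Both lactate carriers fell. SLC16A3 went from 27.3, 32.7 and 28.9 CPM to 8.60, 16.3 and 16.1 CPM in set 1 (-1.11, SE 0.25, adjusted p = 0.011) and from 74.9, 74.9 and 73.9 CPM to 38.3, 37.0 and 42.7 CPM in set 2 (-0.94, SE 0.07, adjusted p = 2.2e-07). SLC16A1 fell by 1.17 and 0.21 on the log2 scale. LDHA did not pass in either set (0.17, adjusted p = 0.21, and -0.06, adjusted p = 0.79), and its set 2 groups overlapped, at 103, 70.8 and 97.4 CPM in the controls against 118, 77.8 and 68.1 CPM. Without trametinib 1 of set 2 LDHA was lower by a difference that passed (-0.33, adjusted p = 0.048). Of the kinases, PDK1 fell by 0.71 and 1.67, whereas PDK2 rose by 1.17 and 1.25 and PDK3 by 0.49 and 1.14.

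Of the hypoxia-type genes 4 of 5 tested fell in each set. VEGFA was 255, 195 and 221 CPM in the set 1 controls and 30.7, 36.8 and 35.02 CPM with trametinib (-2.70, SE 0.13, adjusted p = 6.7e-06). In set 2 it was 228, 267 and 241 CPM and then 25.0, 24.3 and 28.7 CPM (-3.26, SE 0.09, adjusted p = 1.9e-11), 9.56-fold lower. NDRG1 went from 527, 413 and 513 CPM to 23.4, 48.7 and 39.1 CPM in set 1 (-3.70, SE 0.25, adjusted p = 3.2e-05) and from 149.7, 185 and 205 CPM to 33.5, 39.3 and 26.7 CPM in set 2 (-2.46, SE 0.13, adjusted p = 9.9e-09). Every treated library lay far below every control. ADM fell by 1.57 and 1.10, and P4HA1, a collagen prolyl hydroxylase, by 1.10 and 0.38.

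In set 1 the calls depended on the fit. When the 4 groups of set 1 shared a fit, 9 of the 21 held (SLC2A1, SLC2A3, PFKP, PFKFB2, TPI1, PDK2, VEGFA, NDRG1 and P4HA1), and HK2 (adjusted p = 0.06), ADM (0.054) and SLC16A3 (0.16) were among those that did not. Calls over all genes dropped as well, to 937 higher and 1290 lower in place of 1957 and 2374. GPI, PFKM, PDK1 and PDK3 of set 1 were each lost without control 2 of that set, with adjusted p of 0.098, 0.059, 0.08 and 0.11, and without at least 1 other library. DUSP6 fell in both sets (-3.65 and -2.50), while MKI67 rose by 2.99 in set 1, from 43.2, 68.9 and 73.8 CPM to 563, 456 and 453 CPM, and by 0.78 in set 2. The unaligned share, and the share of mitochondrial ribosomal RNA (1.63 to 3.81% in controls, 4.64 to 5.64% with trametinib), moved with the drug in set 1. The mitochondrial share did so in set 2 as well, at 0.970 to 1.60% in the controls and 2.25 to 3.33% with trametinib. The 8 colorectal markers summed to 104 to 129 CPM in the set 1 controls and 389 to 453 CPM with trametinib, and to 126 to 144 CPM and 273 to 302 CPM in set 2. The 8 breast markers went the other way, from 533 to 681 CPM down to 259 to 296 CPM in set 1 and from 286 to 326 CPM down to 143 to 153 CPM in set 2. The part of these in the changes was not tested.

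With palbociclib in SW48, VEGFA, NDRG1, ADM and HK2 fell and 6 of the 9 genes of lower glycolysis rose. Of 32 members tested, 15 rose and 10 fell, where 28.3% of all genes rose and 29.2% fell. These treated libraries are compared with the same 3 controls as trametinib in set 2, so the 2 comparisons are not independent, and the values stand side by side. VEGFA was 26.4, 37.0 and 30.2 CPM with palbociclib (-2.97, SE 0.11, adjusted p = 2.8e-11) and NDRG1 31.8, 23.5 and 23.0 CPM (-2.78, SE 0.13, adjusted p = 3.9e-10). All 6 values lay below the controls, which were 228 CPM or more for VEGFA and 149.7 CPM or more for NDRG1. ADM fell by 0.97. Other measures moved with palbociclib too. All 13 genes read as output of the drug targets passed, 12 lower and 1 higher. Mitochondrial ribosomal RNA was 2.93 to 4.52% of the reads against 0.970 to 1.60% in the controls. The breast markers summed to 145 to 152 CPM against 286 to 326 CPM, and the colorectal markers to 175 to 197 CPM against 126 to 144 CPM. The part of these in the changes was not tested.

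In the lower pathway ENO1 alone fell. PKM was 2547, 2720 and 2941 CPM with palbociclib (1.01, SE 0.07, adjusted p = 1e-08), above every control, where the trametinib libraries lay below every control. ALDOA rose by 0.83, ALDOC by 1.97, TPI1 by 0.48, GAPDH by 0.44 and PGAM1 by 0.59. ENO1 was 1368, 1330 and 1322 CPM in the controls, 921, 890 and 846 CPM with palbociclib (-0.60, adjusted p = 4.7e-07) and 729, 768 and 716 CPM with trametinib (-0.88, adjusted p = 1.8e-08). Upstream, GPI went from 277, 280 and 254 CPM to 461, 449 and 456 CPM (0.75, adjusted p = 1e-07) and PFKL rose by 0.59.

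SLC2A1 was 714, 700.3 and 637 CPM with palbociclib, a small drop with separate groups (-0.34, SE 0.06, adjusted p = 0.00025). HK2 fell to 30.1, 32.0 and 22.7 CPM (-1.05, SE 0.12, adjusted p = 5.2e-06). LDHA was 125, 132 and 107 CPM, above every control (0.43, SE 0.11, adjusted p = 0.0053), but did not pass when every group of the set shared 1 fit (adjusted p = 0.1). SLC16A3 stood at 84.5, 77.5 and 79.4 CPM and did not pass (0.11, adjusted p = 0.19). PDK1 fell by 1.05, and PDK2 and PDK3 rose by 1.10 and 0.73. HK1 (0.26) passed but was lost without control 3 (adjusted p = 0.065) or palbociclib 2 (0.056), and PFKM (0.18) was lost without any 1 of the 6 libraries.

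Set directly against each other in SW48, trametinib left 2 members higher and 16 lower than palbociclib of 32 tested, where 21% of all genes were higher and 20.9% lower. PKM differed most, by -1.57 (SE 0.07, adjusted p = 1.9e-09), followed by SLC16A3 at -1.05 (SE 0.08, adjusted p = 2.3e-07), SLC2A1 at -0.96 (SE 0.06, adjusted p = 3.7e-08) and ALDOA at -0.82 (adjusted p = 3.6e-06). The groups of all 4 genes were separate. PGAM1 (-0.73), PDK1 (-0.62), GAPDH (-0.45), PFKP (-0.42), PFKM (-0.41) and GPI (-0.41) were lower with trametinib as well, and PDK3 (0.41) and SLC2A3 (0.34) higher. SLC2A3 did not pass when every group of the set shared 1 fit (adjusted p = 0.53). The differences of VEGFA (-0.28, adjusted p = 0.084), NDRG1 (0.32, 0.093) and HK2 (-0.40, 0.055) did not pass, which does not show that the drugs act alike on them: VEGFA passed without palbociclib 1 (adjusted p = 0.022) or trametinib 3 (0.047), NDRG1 without the same libraries (0.017 both times), and HK2 without palbociclib 3 (0.02) or trametinib 1 (0.031). LDHA passed at -0.48 (adjusted p = 0.019) with overlapping groups, and was lost by DESeq2 (0.13) and without any of 4 libraries (0.054 to 0.094).

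**Figure D4:**
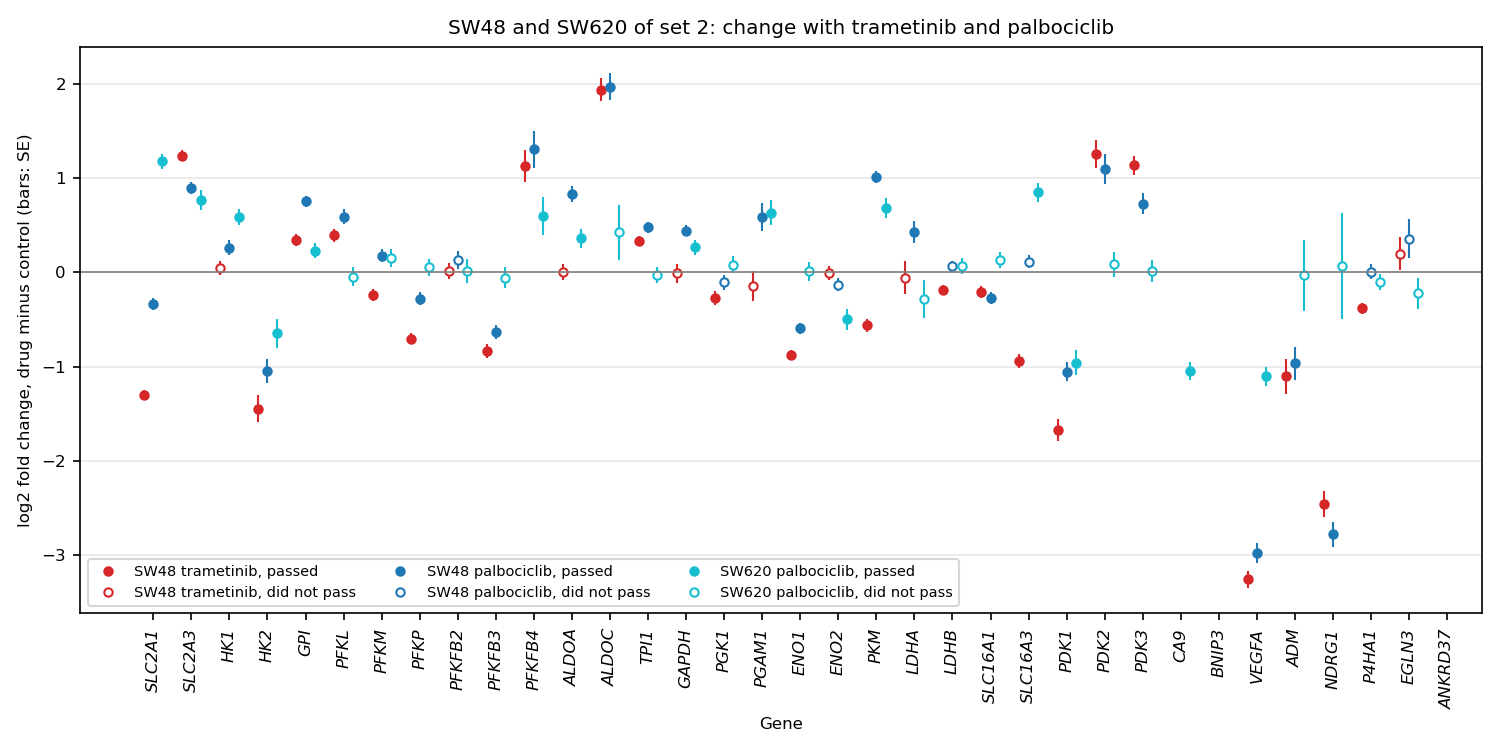
Log2 fold change (vertical axis, bars of 1 SE) of the members (horizontal axis) with trametinib in SW48, palbociclib in SW48 and palbociclib in SW620, all of set 2, filled where the threshold was passed. PKM lies at -0.56, 1.01 and 0.68 and VEGFA at -3.26, -2.97 and -1.10, and the 2 SW48 series share their controls.

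In SW620 with palbociclib the transcripts of both glucose transporters, SLC2A1 and SLC2A3, and of the lactate exporter SLC16A3 rose, while those of VEGFA and CA9 fell. SLC16A3 was the 1 of the 4 lactate genes that passed. Of 33 members tested, 10 rose and 5 fell, where 17.6% of all genes rose and 17.4% fell. SLC2A1 went from 412, 425 and 424 CPM to 866, 936 and 959 CPM (1.18, SE 0.08, adjusted p = 3.9e-06), 2.26-fold higher with separate groups. SLC16A3 went from 189, 159.7 and 205 CPM to 349.9, 301 and 316 CPM (0.85, SE 0.10, adjusted p = 0.00013), also separate. SLC2A3 rose by 0.77, HK1, the constitutive hexokinase, by 0.59, PGAM1 by 0.63 and PKM by 0.68, the last from 1059, 906 and 1195 CPM to 1737, 1568 and 1614 CPM.

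CA9 (chr9:35673928-35681159) went from 95.9, 87.1 and 92.1 CPM to 43.9, 46.2 and 38.5 CPM (-1.05, SE 0.10, adjusted p = 2.7e-05). VEGFA went from 61.0, 56.8 and 59.4 CPM to 29.3, 26.1 and 24.4 CPM (-1.10, SE 0.10, adjusted p = 2.6e-05). Groups did not overlap for either gene. HK2 fell from 58.2, 57.6 and 38.2 CPM to 33.5, 33.2 and 28.3 CPM (-0.65, SE 0.15, adjusted p = 0.0074), PDK1 by 0.96 and ENO2, the neuronal enolase, by 0.50. LDHA overlapped between the groups, at 394, 629.9 and 347 CPM against 296, 358 and 438 CPM (-0.28, adjusted p = 0.31), and NDRG1 differed by 0.06 from controls of 2.27, 1.496 and 1.85 CPM (adjusted p = 0.95). GPI, PFKFB4, ALDOA and GAPDH passed with smaller rises (0.23, 0.60, 0.36 and 0.26) but all 4 were lost without control 1, with adjusted p of 0.14, 0.15, 0.089 and 0.093, and without at least 1 other library. Of the 13 genes read as output of the drug targets, 3 rose and 3 fell, where 17.6% of all genes tested rose and 17.4% fell. The breast markers summed to 132 to 148 CPM in the controls and 78.3 to 89.3 CPM with palbociclib, and the colorectal markers to 471 to 500.5 CPM and 381 to 399 CPM. The part of these in the changes was not tested.

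Palbociclib changed 16 of 33 members differently in the 2 colorectal lines, the change in SW620 minus that in SW48: 9 were higher and 7 lower, where 14.6% of all genes were higher and 11.2% lower. NDRG1 differed by 2.85 (adjusted p = 0.001), VEGFA by 1.88 (SE 0.16, adjusted p = 6.3e-07), SLC2A1 by 1.53 (SE 0.09, adjusted p = 2.3e-08) and SLC16A3 by 0.75 (SE 0.12, adjusted p = 0.00038). SLC2A1 fell in SW48 and rose in SW620, and NDRG1 in SW620 rests on low levels, from 1.496 to 2.27 CPM in the controls. GPI (-0.51), PFKL (-0.63), ALDOC (-1.53), TPI1 (-0.49), PDK2 (-1.001) and PDK3 (-0.70) differed in the other direction. For HK2 the difference of 0.41 did not pass (adjusted p = 0.2), nor did that of LDHA, unless SW620 control 3 or palbociclib 3 was left out (-0.86 both times, adjusted p = 0.019 and 0.041).

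Trametinib gave no call among the members in SW620 in either set. In set 1, 34 were tested and 0% of all genes tested passed. An unadjusted p under 0.05 was found for 2 members and for 366 of all 13081 genes tested. DESeq2 called 1 member, SLC2A3. That gene went from 245, 232 and 112 CPM to 40.9, 16.9 and 14.4 CPM, with separate groups (-3.06, SE 0.51, edgeR adjusted p = 0.92, DESeq2 adjusted p = 4.2e-06). The value of 112 CPM is that of control 3, the library that stood apart, and without it edgeR again called 0 members. In set 2, 33 were tested and again 0% of all genes passed. Here 11 members, and 2204 of all 12919 genes tested, had an unadjusted p under 0.05, and DESeq2 called 0 members. Of the genes followed throughout, the set 2 differences were -0.19 for SLC2A1, -0.02 for HK2, -0.24 for LDHA, -0.58 for SLC16A3, -0.54 for VEGFA and -0.42 for NDRG1. VEGFA was 56.3, 50.7 and 16.1 CPM with trametinib, so its lowest value comes from library 3. Without trametinib 1, 5 members passed: SLC16A3 (-0.83), PDK1 (-0.72), PFKP (-0.65) and SLC2A3 (-0.50) lower and PDK3 (0.56) higher. The same step took the count over all genes from 0 to 882. DUSP6 did not pass in SW620 either, at -0.49 in set 1 and -0.29 in set 2.

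The trametinib effect differed between the 2 lines of set 2 for 17 of 33 members, 9 higher and 8 lower in SW620 than in SW48 (15.3% and 12.9% of all genes). VEGFA differed by 2.74 (SE 0.40, adjusted p = 0.00022), NDRG1 by 2.06 (adjusted p = 0.0012), HK2 by 1.45 (adjusted p = 0.0011) and SLC2A1 by 1.13 (SE 0.11, adjusted p = 5.7e-06). PDK1 (1.17), PFKFB3 (0.76) and ENO1 (0.76) were higher too, while SLC2A3 (-1.56), ALDOC (-1.41), PFKFB4 (-1.30), PDK2 (-1.17), PDK3 (-0.62) and GPI (-0.52) were lower. As with palbociclib, NDRG1 in SW620 rests on low levels, with a mean of 1.87 CPM in the controls. SLC16A3 did not pass (0.38, adjusted p = 0.27), but did without SW620 trametinib 3 (0.57, adjusted p = 0.023). The controls of set 2 enter both the trametinib and the palbociclib difference, which are therefore not independent.

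**Figure D5:**
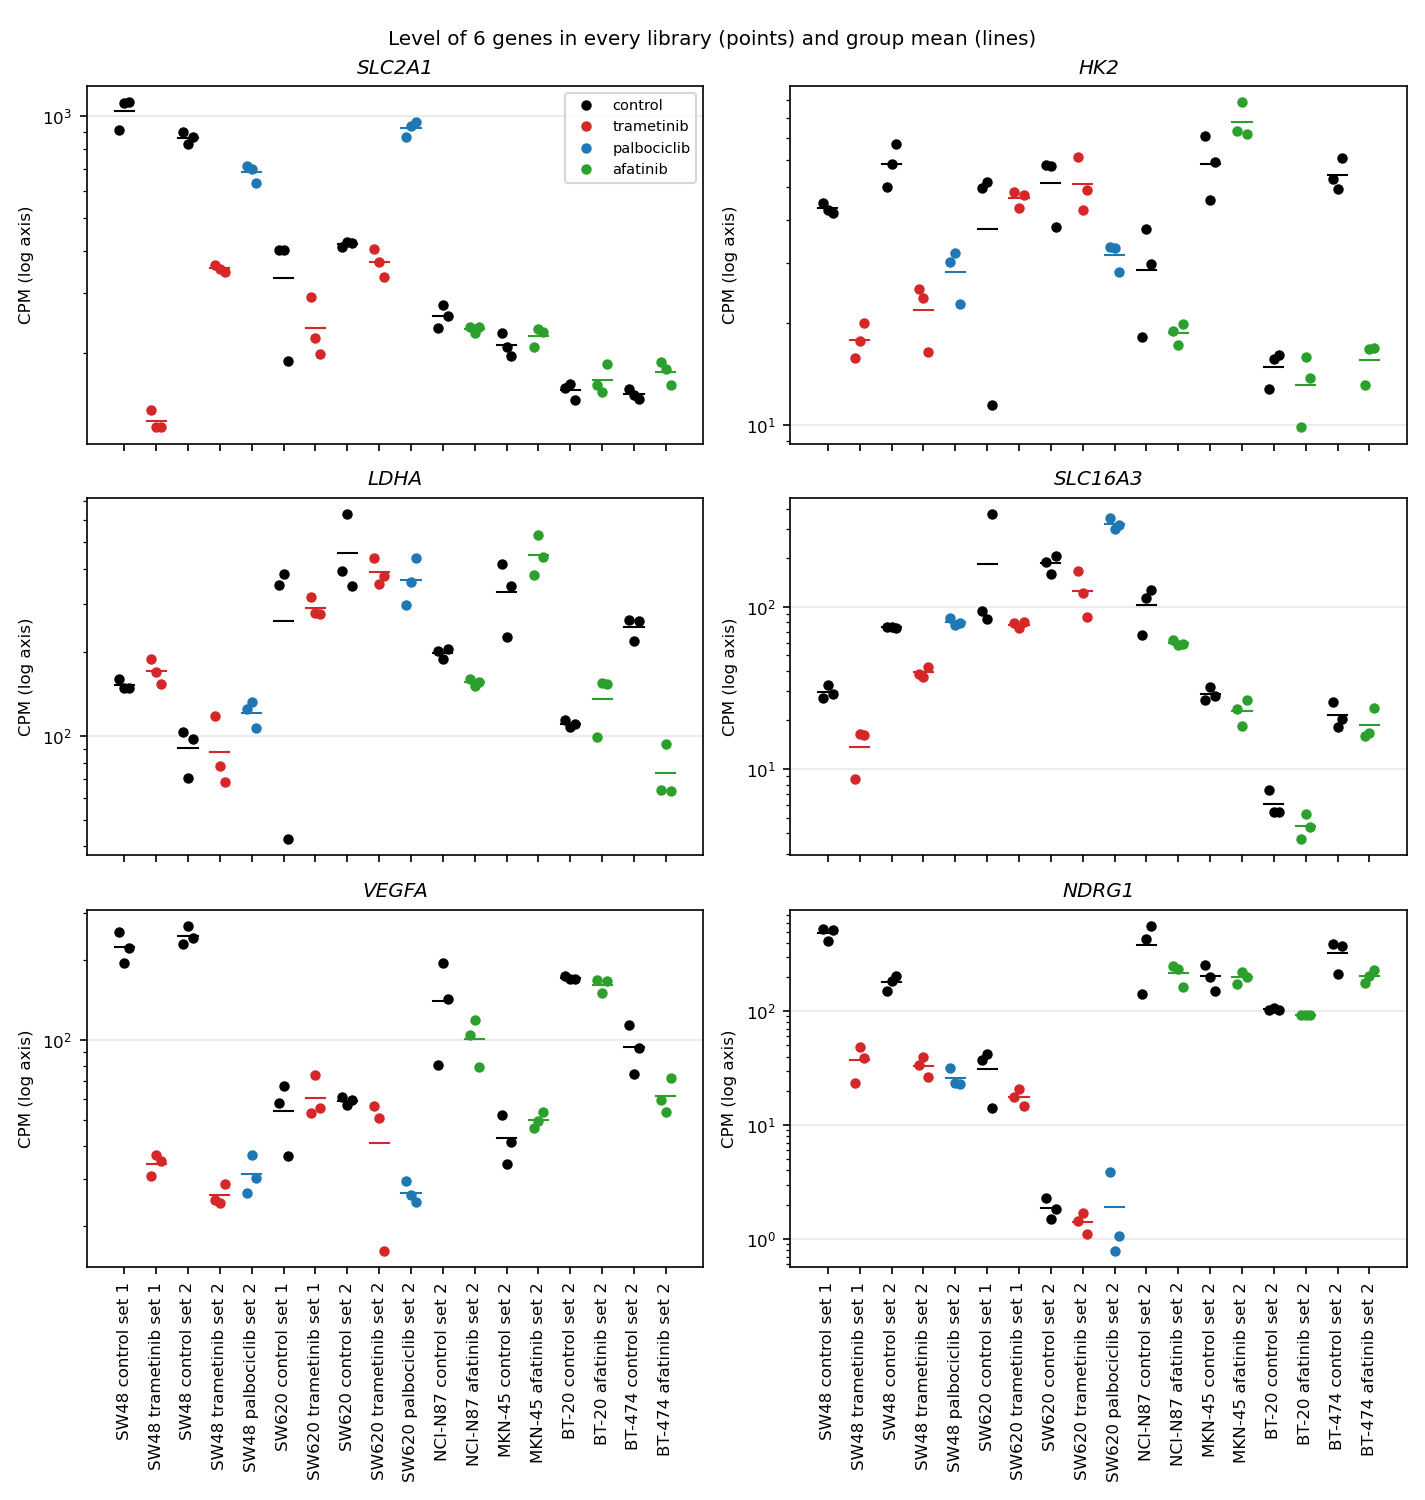
Levels in CPM (log axis) of SLC2A1, HK2, LDHA, SLC16A3, VEGFA and NDRG1 in all 18 groups, one point per library and a line at each mean. In the SW48 groups VEGFA and NDRG1 drop by a wide gap with trametinib and palbociclib, and in BT-474 HK2 and LDHA drop with afatinib.

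The stomach lines gave no member calls with afatinib when all libraries were used. In NCI-N87, a line with amplified ERBB2, 32 members were tested and 0% of all genes passed. There 7 members, and 1523 of all 12472 genes tested, had an unadjusted p under 0.05, and DESeq2 called 0 members. NDRG1 was 143, 430 and 559 CPM in the controls and 248, 235 and 163 CPM with afatinib (-0.79, adjusted p = 0.43), and HK2 was 18.2, 37.8 and 29.9 CPM against 18.9, 17.2 and 19.9 CPM (-0.62, adjusted p = 0.38). For both genes control 1 lay inside or near the treated range and the other 2 controls well above it. Without control 1, 9 members passed and all were lower: NDRG1 (-1.19, adjusted p = 0.0028), SLC16A3 (-0.99), HK2 (-0.86, adjusted p = 0.0084), PDK2 (-0.84), VEGFA (-0.74), PGK1 (-0.53), PFKFB3 (-0.53), ALDOA (-0.47) and GAPDH (-0.40). The same step took the count over all genes from 0 to 2108. PGK1 (198, 192 and 209 CPM against 149.6, 133 and 132 CPM) and LDHA (202, 189 and 206 CPM against 161, 151 and 157 CPM) had separate groups with every library included, at -0.52 and -0.34, each with an adjusted p of 0.37. SLC2A1 differed by -0.12 (adjusted p = 0.68), SLC16A3 by -0.76 (0.37) and VEGFA by -0.46 (0.49).

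In MKN-45, a stomach line with amplified MET, 33 members were tested and 0% of all genes passed. There 3 members, and 664 of all 12358 genes tested, had an unadjusted p under 0.05, and DESeq2 called 0 members. The differences were 0.11 for SLC2A1 (adjusted p = 0.83), 0.42 for HK2 (0.82), 0.45 for LDHA (0.82), -0.32 for SLC16A3, 0.23 for VEGFA and -0.02 for NDRG1. LDHB stood at 1636, 1705 and 1573 CPM in the controls and 1662, 1650.2 and 1565 CPM with afatinib. The afatinib effect in NCI-N87 minus that in MKN-45 passed for no member of 34, where 0.0145% of all genes passed. An unadjusted p under 0.05 was found for 5 members and for 1578 of all 13791 genes tested. DESeq2 called 1 member, PGK1, at -0.70 with an adjusted p of 0.0044. Without NCI-N87 control 1 the edgeR difference between the lines passed for HK2 (-1.26), NDRG1 (-1.14), VEGFA (-0.94) and PGK1 (-0.69).

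Genes around the pathway, in lists of their own, were read in the same fits. PCK2, the mitochondrial enzyme that makes phosphoenolpyruvate outside glycolysis and a known target of the amino acid stress response, fell in 5 comparisons. Its log2 fold changes were -3.96 and -3.58 with trametinib in SW48 sets 1 and 2, -3.63 with palbociclib in SW48, -1.63 with palbociclib in SW620 and -1.49 with afatinib in BT-474. In SW48 set 2 its levels were 184, 145 and 184 CPM in the controls, 13.4, 18.6 and 11.6 CPM with trametinib and 10.8, 15.8 and 14.9 CPM with palbociclib. BT-20, where no member passed, held PCK2 at 115, 99.7 and 109 CPM and 113, 120.2 and 124 CPM. HKDC1, another hexokinase-type enzyme, was at 39.4, 53.7 and 44.2 CPM in the SW48 controls of set 2 and at 2.48, 1.40 and 1.97 CPM with palbociclib, and with trametinib only 2 counts were found in 3 libraries. Over the list of other glycolysis and gluconeogenesis genes, 1 rose and 3 fell of 14 in SW48 with trametinib in set 1, 5 and 2 of 14 in set 2, 6 and 2 of 14 with palbociclib, 4 and 2 of 12 in SW620 with palbociclib and 6 and 4 of 13 in BT-474. The shares of all genes tested that rose and fell in these 5 comparisons were 16% and 19.4%, 30.1% and 30.1%, 28.3% and 29.2%, 17.6% and 17.4%, and 20.9% and 21.8%, in the same order. Against them the counts of so short a list are a description only.

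Genes that carry pyruvate into mitochondrial metabolism, or control its entry, fell in BT-474 with afatinib, 8 of 12 tested, with 1 higher. Their median was -0.59 against 0.01 for all genes, of which 20.9% rose and 21.8% fell. DLAT and PDHX, subunits of pyruvate dehydrogenase, fell by 0.72 and 0.94 and the pyruvate carrier MPC1 by 0.90. PDK4, a kinase that switches pyruvate dehydrogenase off, fell by 0.95. PC, pyruvate carboxylase, had 34, 38 and 54 counts in the controls and 3, 2 and 2 counts with afatinib. In BT-20 PDK4 was the 1 gene of this list that passed, at 0.69, from 19.4, 17.5 and 18.5 CPM to 28.1, 31.1 and 28.7 CPM. PDK4 also rose in SW48, by 2.73 and 2.16 with trametinib and by 1.65 with palbociclib. The number that rose and fell in SW48 was 1 and 2 of 11 with trametinib in set 1 (16% and 19.4% of all genes), 5 and 2 in set 2 (30.1% and 30.1%) and 5 and 1 with palbociclib (28.3% and 29.2%). In SW620 with palbociclib it was 2 and 4 of 12 (17.6% and 17.4%).

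BSG, the chaperone that SLC16A1 and SLC16A3 need at the membrane, rose by 0.60 in SW48 and 0.38 in SW620 with palbociclib, and fell by 0.71 in SW48 set 1 with trametinib and by 0.40 in BT-474. With trametinib in SW48 set 2 it did not pass (0.06, edgeR adjusted p = 0.49), so the fall of set 1 was not repeated.

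Other hypoxia-type genes were counted as well. With trametinib in SW48, 1 rose and 8 fell of 18 in set 1 (16% and 19.4% of all genes), 8 rose and 5 fell of 19 in set 2 (30.1% and 30.1%), and with palbociclib 7 rose and 6 fell of 18 (28.3% and 29.2%). BHLHE40, a hypoxia-induced repressor, fell by 1.95 and 2.42 with trametinib and by 0.52 with palbociclib in SW48, and rose by 0.90 with palbociclib in SW620. In SW620 with palbociclib 7 rose and 2 fell of 21 (17.6% and 17.4% of all genes), among them STC2, a secreted glycoprotein, from 190.0, 184 and 155 CPM to 48.3, 40.6 and 38.5 CPM (-2.01, adjusted p = 8.6e-07). In BT-474, where VEGFA and ADM fell, 5 rose and 3 fell of 21 (20.9% and 21.8% of all genes): MXI1, an antagonist of MYC, rose from 21.7, 27.0 and 23.2 CPM to 53.8, 52.1 and 52.9 CPM (1.16, adjusted p = 1.8e-06), and STC2 rose by 0.83. Of the hypoxia factors themselves, EPAS1 (HIF-2 alpha) rose in SW48 set 2 by 2.07 with trametinib and 1.21 with palbociclib and in BT-474 by 0.96, and HIF1A rose in SW620 with palbociclib by 0.78. Over the list of these factors and their regulators, 0 rose and 1 fell of 7 with trametinib in SW48 set 1 (16% and 19.4% of all genes), with a highest change of 0.64. In set 2, 3 rose and 0 fell of 7 (30.1% and 30.1%). With palbociclib it was 2 and 1 of 7 in SW48 (28.3% and 29.2%) and 1 and 2 of 7 in SW620 (17.6% and 17.4%). In BT-474 it was 1 and 1 of 8 (20.9% and 21.8%).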

How the data were processed

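The authors deposited raw counts of 3′ end reads per gene in 2 tables, and the submitters' processing notes name Trimmomatic, STAR, featureCounts and the build hg38, with no versions. Whether counting used strand is not given in the sources used here, so reads of a gene and of an antisense partner cannot be told apart. The second table repeats 12 libraries of the first, and these copies were not used. The 5 rows of reads given to no gene were kept out. Each comparison was fitted on the counts of its own groups with edgeR 4.0.16 in R 4.3.3 (limma 3.58.1), with TMM scaling, filterByExpr (minimum count 10, minimum total 15), the quasi-likelihood test and Benjamini-Hochberg adjustment over all genes tested, with a threshold of 0.05. The script was tested on simulated data. DESeq2 1.42.0, other scaling, no filter, a replicate block, 1 fit for all groups of a set and leaving out each library were alternatives. All 35 members may be named, and library values are given for up to 6 called members of largest change, and for SLC2A1, HK2, LDHA, SLC16A3, VEGFA and NDRG1. The members and lists were chosen with earlier results of these data known.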

Additional observations from a re-analysis of the deposited data

Results flagged for a closer look

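The change with a drug differed between 2 lines, by a test of the difference itself, in 3 pairs. With trametinib, SW620 minus SW48, 17 members of 33 differed, among them SLC2A1 (1.13 on the log2 scale), HK2 (1.45), VEGFA (2.74) and NDRG1 (2.06). Of all genes tested 15.3% were higher and 12.9% lower. With palbociclib in the same lines 16 of 33 differed, among them SLC2A1 (1.53), SLC16A3 (0.75), VEGFA (1.88) and NDRG1 (2.85). The shares of all genes were 14.6% higher and 11.2% lower. For both drugs the NDRG1 difference rests on low levels in SW620, with a mean of 1.87 CPM in the controls. With afatinib, BT-474 minus BT-20, 15 of 34 differed, among them HK2 (-1.65), LDHA (-2.07) and VEGFA (-0.55), where 10.2% of all genes were higher and 13.6% lower. The VEGFA call was lost without any of 8 of the 12 libraries. The 15 include SLC2A3 and PGAM1, which rest on few counts in BT-474.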

How the results depend on the processing

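No member that passed in the main fit or in the alternative changed direction under the alternatives run. Where a member passed in neither fit, the direction was not compared. The number of members called moved by over 1.5 times in these cases. With all groups of a set in 1 fit it was 9 in place of 21 for trametinib in SW48 set 1, 5 in place of 0 for trametinib in SW620 set 2 and 6 in place of 0 for NCI-N87, where the same fit called 632 and 1427 genes in all, each in place of 0. Without the filter on low counts it was 3 for trametinib in SW620 set 2, 1 for NCI-N87, 2 for BT-20 and 1 for the difference between the stomach lines, and with DESeq2 it was 1 for trametinib in SW620 set 1 and 1 for the stomach difference, each in place of 0. The cause was not tested.

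With each library left out in turn, the count for trametinib ranged from 17 to 20 in SW48 set 1, from 24 to 26 in SW48 set 2, and from 0 to 5 in SW620 set 2 (5 without trametinib 1). It stayed at 0 for trametinib in SW620 set 1 and for MKN-45. The palbociclib count ranged from 23 to 25 in SW48 and from 11 to 14 in SW620. The afatinib count ranged from 0 to 9 in NCI-N87 (9 without control 1), from 0 to 1 in BT-20 (1 without afatinib 1) and from 15 to 22 in BT-474. The differences between lines ranged from 14 to 18 for trametinib, 14 to 17 for palbociclib, 10 to 16 for the breast lines (10 without BT-474 control 1) and 0 to 4 for the stomach lines (4 without NCI-N87 control 1), and trametinib against palbociclib ranged from 15 to 19.

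Over all genes, 1 fit for the set called 2227 in place of 4331 for trametinib in SW48 set 1, 2 and 7 in place of 0 for trametinib in SW620 set 1 and for MKN-45, and 12 in place of 75 for BT-20. The replicate block called 5 for BT-20. Without the filter on low counts 398 genes passed for trametinib in SW620 set 2, 197 for NCI-N87 and 497 for BT-20, and with DESeq2 208, 37 and 163, with 14 for trametinib in SW620 set 1. Leaving out 1 library gave 882 in place of 0 for trametinib in SW620 set 2 (without trametinib 1) and 2108 in place of 0 for NCI-N87 (without control 1), and between 6 (without control 3) and 96 (without afatinib 1) for BT-20. The stomach difference passed for 140 genes without the filter, 36 with DESeq2 and 1315 without NCI-N87 control 1, in place of 2.

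Replicate numbers did not pair the libraries: in no comparison did all 3 same-numbered pairs correlate above 0.1. With the number as a replicate block the count was 19 for trametinib in SW48 set 1, 24 in SW48 set 2, 24 for palbociclib in SW48, 13 in SW620, 20 in BT-474 and 20 for trametinib against palbociclib.

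SLC2A3 and PGAM1 in BT-474, with at most 1 count in a control library, are given as counts, since depth limits their fold.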
